A study of Mus musculus with 3 samples.

Results

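The 10 genes described here encode the vascular endothelial growth factors Vegfa, Vegfb and Vegfc, their receptors Flt1, Kdr and Flt4, the co-receptor Nrp1, the angiopoietins Angpt1 and Angpt2, and the angiopoietin receptor Tek. They were chosen by name as a ligand and receptor set, and all 10 were listed in each of the 3 count tables, which together list 18738 genes. The samples were 3 cryopreserved lots (26, 29 and 30) of fetal ovarian somatic cells (FOSCs) from E12.5 CD1 mice, each lot pooled from the embryos of 10 pregnant females, with the mesonephros cut away. Before freezing, cells carrying SSEA1 or CD31 were removed on a magnetic column, so the germ cells and endothelial cells in these data are those that escaped the column. After thawing, each lot was profiled by 10X Genomics 3′ single-cell RNA sequencing. All lots share 1 condition, and the comparisons below are between cell classes over the 3 lots.

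VEGF ligands are secreted factors that bind receptor tyrosine kinases on endothelial cells. VEGFR2 (Kdr) carries most of the growth signal, VEGFR1 (Flt1) binds Vegfa and Vegfb and can hold ligand away from Kdr, and VEGFR3 (Flt4) binds Vegfc and acts in lymphatic vessels. Angiopoietin 1 activates the receptor TIE2 (Tek) and steadies vessels, whereas angiopoietin 2 often opposes it, and in the fetal gonad vessels grow among the supporting and stromal cells.

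Kept barcodes (200 to 9000 genes and at most 10% mitochondrial UMIs) numbered 9711, 8553 and 10707 in lots 26, 29 and 30, with medians of 11126, 8949 and 11595 UMIs per cell. A UMI is a molecular tag that counts 1 captured transcript. Between 19 and 30 barcodes were shared by any pair of lots and 0 by all 3. Cells were clustered without the 10 genes, and clusters were named from marker genes that do not include them. The named classes used for tests were pre-granulosa-like (11965 cells), epithelial-like (6036), stromal-like (3825), germ-like (1473), endothelial-like (349) and myeloid-like cells (135), and the first 3 of these are called the large somatic classes. Clusters 4, 13, 14 and 15 remained unnamed, because leading genes of clusters 4 and 13 belonged to another marker list, only 19.5% of the cells of cluster 15 held 2 markers of its best list, and cluster 14 held few UMIs per cell. Of the pre-granulosa-like cells, cluster 3 (2820 cells) came mostly from lot 30 (2593 cells) and cluster 0 (3247 cells) mostly from lot 26 (2038 cells). Levels are CPM, the UMIs of a gene scaled to 1e6 UMIs of its class in a lot.

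The endothelial-like class carried its defining markers. All 10 endothelial markers had UMIs in every lot, and their summed level was 3850, 2675 and 3237 CPM in lots 26, 29 and 30, against 30.9 to 56.3 CPM in the large somatic classes. Pecam1, which encodes CD31, the target of the depleting antibody, had a UMI in 99.4%, 60.2% and 82.8% of these cells in lots 26, 29 and 30. Its level was 495, 150.0 and 297 CPM in the same order, so lot 29 was lowest. The lots therefore differ in how much CD31 transcript the escaped endothelial-like cells carried, and lot 29 was also the lowest for Flt1, Kdr, Nrp1 and Tek. Whether the column or the cells set this cannot be told apart. Lot 29 also held the most Sertoli-like cells, which the paper regards as contaminating. They were 0.906%, 3.32% and 0.149% of the cells of lots 26, 29 and 30. The Sertoli marker list summed to 38.3, 95.7 and 20.7 CPM in the endothelial-like cells of the same lots. The part of these cells in the lot differences was not tested.

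Flt1, Kdr and Tek are the receptors that the results below turn on, and the 250 bases before their RefSeq start sites are shown here, from the GRCm38.p6 table, 5′ to 3′ on the strand of the gene. Capitals mark GGAAG or its reverse complement CTTCC, the core letters recognised by many ETS factors, a family active in endothelial cells.
Flt1, chr5:147726012-147726261, minus strand: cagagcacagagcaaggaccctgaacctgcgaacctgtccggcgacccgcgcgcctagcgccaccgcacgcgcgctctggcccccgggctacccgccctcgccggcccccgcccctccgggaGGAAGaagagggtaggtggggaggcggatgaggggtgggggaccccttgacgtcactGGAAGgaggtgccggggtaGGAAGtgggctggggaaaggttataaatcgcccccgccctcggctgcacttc
Kdr, chr5:75978456-75978705, minus strand: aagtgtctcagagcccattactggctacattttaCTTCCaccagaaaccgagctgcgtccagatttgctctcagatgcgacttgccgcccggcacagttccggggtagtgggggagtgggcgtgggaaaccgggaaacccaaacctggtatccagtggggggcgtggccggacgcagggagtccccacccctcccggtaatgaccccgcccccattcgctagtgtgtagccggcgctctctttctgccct
Tek, chr4:94739039-94739288, plus strand: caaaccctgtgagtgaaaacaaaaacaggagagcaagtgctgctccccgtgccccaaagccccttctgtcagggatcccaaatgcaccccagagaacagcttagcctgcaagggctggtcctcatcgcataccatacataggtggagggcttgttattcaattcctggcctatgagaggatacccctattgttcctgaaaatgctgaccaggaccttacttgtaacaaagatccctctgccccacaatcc
The Flt1 window held 3 matches, the Kdr window 1 and the Tek window 0. Of 32851 windows of this length in the table, 64.1% held at least 1 match on either strand, so a match is common and is given as a description of letters only. For Flt4 and Nrp1 the RefSeq start lies 416 and 469 bases inside the gene as GENCODE M21 annotates it, and their windows are not shown. Windows were found for 8 of the 10 genes.

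In GENCODE M21 (GRCm38), all 10 are protein-coding genes. Flt1 (ENSMUSG00000029648.13, chr5:147561604-147726011) and Kdr (ENSMUSG00000062960.10, chr5:75932827-75978458) lie on the minus strand of chromosome 5, and Tek (ENSMUSG00000006386.15, chr4:94739289-94874976) on the plus strand of chromosome 4. Vegfa (ENSMUSG00000023951.17, chr17:46016993-46032369, minus strand) and Angpt1 (ENSMUSG00000022309.9, chr15:42424723-42676977, minus strand) are the ligands described in most detail. Angpt2 (chr8:18690263-18741562) lies within the span of Mcph1 on the opposite strand, and the counting setting for strand is not given in the sources used here, so its low counts could include reads of Mcph1.

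The endothelial-like cells carried all 4 receptor tyrosine kinases and Nrp1 at levels above every other tested class. Flt1 stood at 328, 131 and 255 CPM in lots 26, 29 and 30, and no lot of another tested class exceeded 3.10 CPM. Tek, the angiopoietin receptor, was at 86.7, 61.4 and 88.6 CPM, with at most 1.39 CPM in any lot of the other tested classes. The lots of the endothelial-like class did not overlap with those of any other tested class for either gene.

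Flt4 was at 80.0, 58.2 and 57.2 CPM in the endothelial-like lots and at or below 1.51 CPM in the other tested classes. Kdr was at 575, 338 and 455 CPM, the highest level of any class, and epithelial-like cells, described below, were second among the tested classes. Outside these, mesonephric tubule-like cells and the unnamed cluster 14 had Kdr means of 70.4 and 66.7 CPM. The epithelial-like mean was 57.1 CPM. Nrp1, which binds VEGF and semaphorins and is not confined to vessels, was at 340, 188 and 273 CPM in endothelial-like cells and at 133, 92.7 and 77.2 CPM in myeloid-like cells. The endothelial-like lots lay above those of the other tested classes for both genes.

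**Figure D1:**
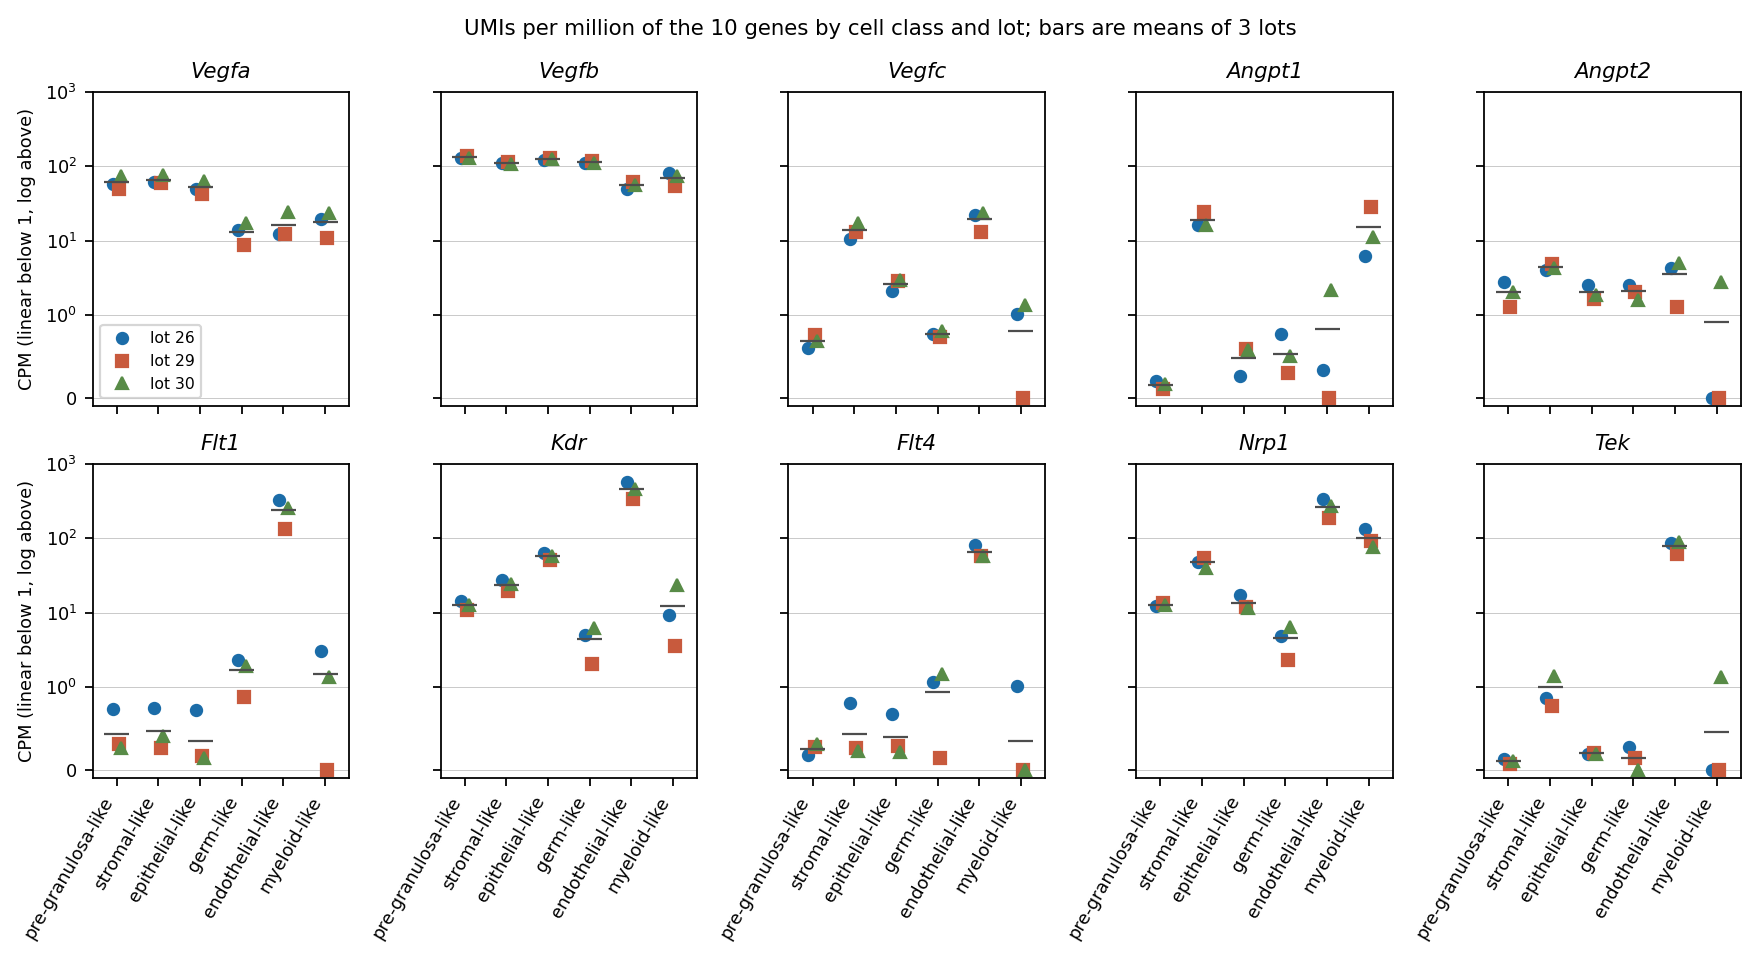
CPM (vertical axis, linear below 1 and logarithmic above) of the 10 genes in the 6 tested cell classes, with 1 symbol per lot and a bar at the mean of the 3 lots. Flt1, Flt4 and Tek stand far above the other classes in endothelial-like cells, Kdr has a second level in epithelial-like cells, and Angpt1 is high in stromal-like and myeloid-like cells.

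Set against the mean of the 3 large somatic classes with edgeR's quasi-likelihood test over 14686 genes, 6 of the 10 genes were higher in endothelial-like cells and 2 were lower, where 41.3% of all genes tested were called, 18.2% higher and 23.1% lower. Flt1 was higher by a log2 fold change of 9.16 ± 0.25 (SE, adjusted p = 1.234e-16, edgeR), Tek by 8.08 ± 0.19 (adjusted p = 1.574e-17) and Flt4 by 7.52 ± 0.26 (adjusted p = 5.231e-15). Kdr was higher by 4.13 ± 0.15 and Nrp1 by 3.72 ± 0.15, with adjusted p of 6.735e-15 and 9.047e-14 in the same edgeR test. The median log2 fold change of the 10 genes was 3.23, against -0.13 over all genes tested.

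Vegfc, the ligand of Flt4, was the sixth gene called higher, at 22.0, 12.9 and 23.6 CPM in endothelial-like cells (log2 fold change 2.74 ± 0.20, adjusted p = 1.213e-09, edgeR). The stromal-like lots, at 10.4, 13.1 and 17.5 CPM, overlapped with this range, and the difference comes from the other large classes. Vegfa and Vegfb, the ligands of Flt1, were lower in endothelial-like cells. Vegfa was at 12.3, 12.3 and 24.3 CPM there, and fell by 1.95 on the log2 scale (SE 0.23, adjusted p = 1.172e-06, edgeR). With the barcodes called as doublets left out, 16.7%, 11.4% and 21.8% of this class in lots 26, 29 and 30, the endothelial-like mean of Vegfa was 7.46 CPM in place of 16.3 and the log2 fold change was -3.08.

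Vegfb was at 49.0, 60.8 and 55.7 CPM in endothelial-like cells and between 106.9 and 137.4 CPM in the large somatic classes, and fell by 1.17 (SE 0.12, adjusted p = 9.814e-08, edgeR). Angpt1 and Angpt2 were not called in this comparison (adjusted p = 0.509 and 0.371, edgeR). Angpt1 had 4 UMIs in all 349 endothelial-like cells. Its level there was 0.0371 times that of stromal-like cells, with a 95% interval from counting of 0.0101 to 0.0953. Against epithelial-like cells the ratio was 1.38 (0.360 to 3.78), and against pre-granulosa-like cells 4.10 (1.02 to 12.15), from 45 and 21 UMIs in those classes.

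**Figure D2:**
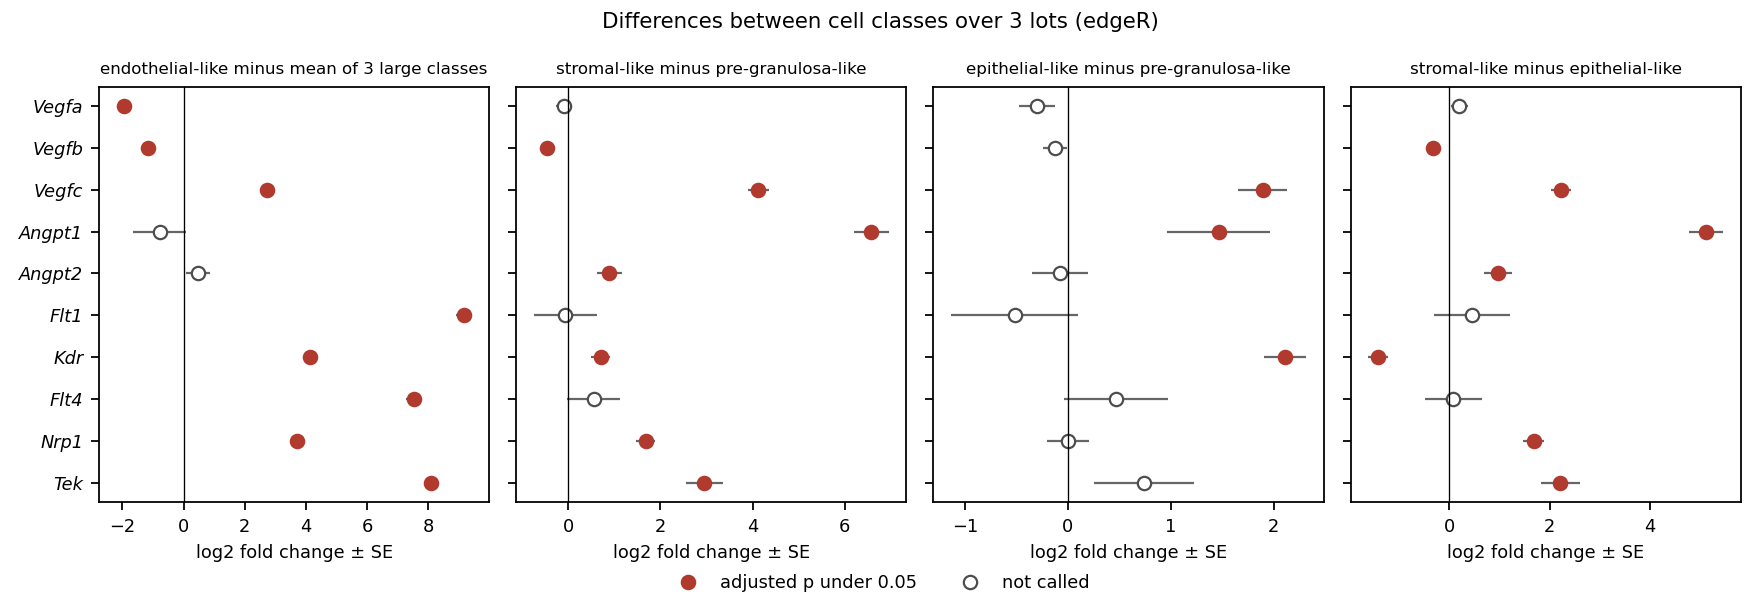
Log2 fold changes (horizontal axis, bars ± SE) of the 10 genes in 4 comparisons of cell classes over 3 lots, filled where the edgeR adjusted p was under 0.05. Receptors lie to the right in the endothelial-like comparison, and Angpt1 and Vegfc to the right in the stromal-like comparisons.

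Single endothelial-like cells carried the receptors together. Kdr had a UMI in 338 of 349 cells, Flt1 together with Kdr in 299 (85.7%), and Kdr together with Tek in 205 (58.7%). All 5 of Flt1, Kdr, Flt4, Nrp1 and Tek were found in 115 cells (33.0%), and 0 of them in 2 cells. By lot, the share with all 5 was 39.7%, 23.9% and 28.7% in lots 26, 29 and 30, which is lowest in lot 29.

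Depth limits such shares. With each cell thinned to 4000 UMIs, Kdr was found in 83.8%, 70.1% and 78.6% of endothelial-like cells, against 97.7%, 93.2% and 98.9% before thinning. Tek fell from 62.1%, 55.7% and 59.8% to 22.5%, 19.5% and 25%. Cells without a Tek UMI are therefore not shown to lack Tek.

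Flt4 is best known from lymphatic vessels, and markers of these were rare. Of the 349 endothelial-like cells, 211 had a UMI of Flt4 (60.5%), 23 of Prox1, 7 of Lyve1 and 27 of Pdpn. Flt4 was found together with Prox1 in 11 cells and together with Pecam1 in 190.

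Kdr had a second, wide source in the epithelial-like cells, the class named from markers that include Upk3b, Krt19 and Lhx2. The position of these cells in the ovary was not measured. The Kdr level in this class was 63.2, 51.1 and 56.9 CPM in lots 26, 29 and 30. Stromal-like cells were at 27.4, 19.7 and 24.1 CPM, and pre-granulosa-like cells at 14.2, 10.8 and 12.7 CPM. The 3 classes did not overlap in any lot, in this order.

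Kdr was higher in epithelial-like than in pre-granulosa-like cells by a log2 fold change of 2.11 ± 0.20 (adjusted p = 5.029e-08, edgeR), and lower in stromal-like than in epithelial-like cells by 1.40 on the same scale (log2 fold change -1.40 ± 0.20, adjusted p = 1.505e-05, edgeR). All 4 epithelial-like clusters held it, at means of 48.0 to 69.0 CPM, with cluster 10 (Krt19, Pappa2 and Hoxd11 among its leading genes) highest. Since epithelial-like cells outnumber endothelial-like cells, they held 33.6%, 49.5% and 51.2% of the Kdr UMIs of lots 26, 29 and 30, against 34.6%, 21.1% and 13.8% in endothelial-like cells. The endothelial-like class held 2.38%, 1.77% and 0.990% of all UMIs in the same lots, and the epithelial-like class 21.05%, 27.48% and 29.38%. Cells carrying CD31 had been removed before freezing, so these shares describe the depleted lots and not the whole fetal ovary.

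The Kdr of epithelial-like cells stood beside few UMIs of Flt1. Epithelial-like cells had 181.7 Kdr UMIs per Flt1 UMI (88.2, 307 and 394 in lots 26, 29 and 30), whereas endothelial-like cells had 1.87 (1.75, 2.58 and 1.78). The epithelial-like figures rest on only 29 Flt1 UMIs (19, 4 and 6 in these lots), against 1544 in endothelial-like cells, so their size is uncertain. The lots of these classes did not overlap. In germ-like cells, where Kdr was low, the figure was 2.48 (2.17, 2.33 and 3.21, from 42, 6 and 19 Flt1 UMIs), close to the endothelial-like one. Pre-granulosa-like and stromal-like cells lay between, at 29.2 and 49.5 Kdr UMIs per Flt1 UMI, from 56 and 22 Flt1 UMIs. The part of free RNA in the Kdr values was not tested.

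**Figure D3:**
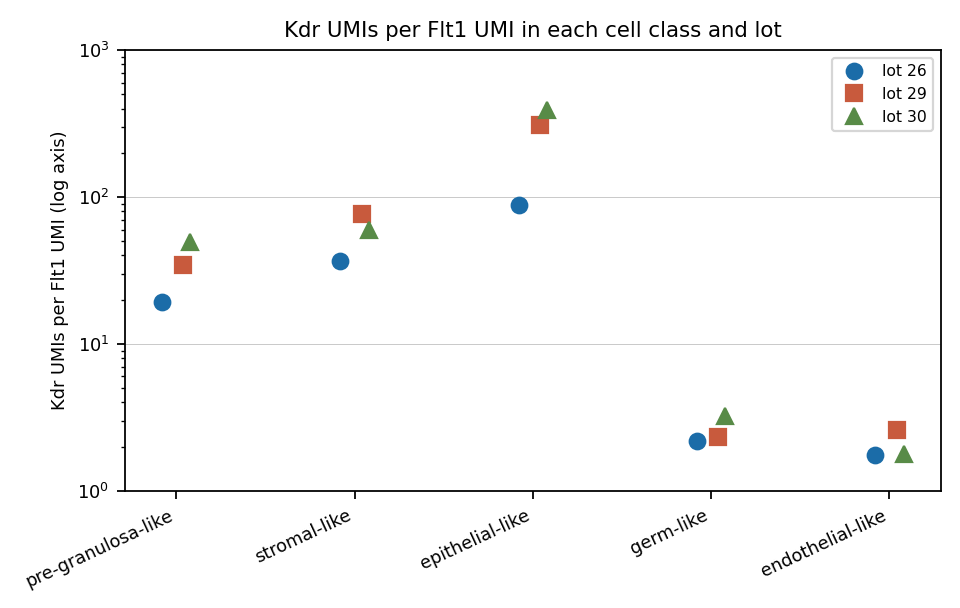
Kdr UMIs per Flt1 UMI (vertical axis, logarithmic) in 5 cell classes, with 1 symbol per lot. Endothelial-like and germ-like lots lie between 1.75 and 3.21, and epithelial-like lots between 88.2 and 394, from 19, 4 and 6 Flt1 UMIs in lots 26, 29 and 30.

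Within the epithelial-like class, 2522 of 6036 cells had a Kdr UMI. Of these, 0.515% also had a Flt1 UMI, against 0.427% of the cells without Kdr, and their summed endothelial marker level was 39.96 CPM against 38.41 CPM. At least 2 endothelial markers were found in 8.57% of the cells with Kdr and in 4.89% of those without. The cells with Kdr were deeper, at a median of 15302 UMIs against 12344, and the part of depth in these shares was not tested. The share of cells with a Kdr UMI was 44.5%, 35.2% and 45.2% in the epithelial-like lots, at a median depth of 13380.5 UMIs, and 8.80%, 3.26% and 9.85% in germ-like cells, which are deeper (median 21213 UMIs). Thinned to 4000 UMIs per cell, the shares were 20.4%, 17.1% and 18.3% against 1.88%, 0% and 0.785%.

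Vegfa, the main attractant of vessels, came from all 3 large somatic classes at like levels. It stood at 60.3, 59.9 and 77.2 CPM in stromal-like, 57.7, 49.8 and 74.1 CPM in pre-granulosa-like and 49.2, 42.3 and 63.5 CPM in epithelial-like cells of lots 26, 29 and 30. Neighbours in this order overlapped, and the epithelial-like lots lay above the myeloid-like, endothelial-like and germ-like lots, which reached at most 24.3 CPM. Pre-granulosa-like cells held 40.7%, 35.6% and 41.4% of the Vegfa UMIs of each lot, beside 35.5%, 33.0% and 38.5% of all UMIs.

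None of the 3 pairwise comparisons called Vegfa in the edgeR test without a term for the lot, with log2 fold changes between -0.30 and 0.21. With the lot as a block, Vegfa was lower in epithelial-like than in pre-granulosa-like cells (log2 fold change -0.30 ± 0.07, adjusted p = 0.000921, edgeR) and higher in stromal-like than in epithelial-like cells (0.21 ± 0.07, adjusted p = 0.0187, edgeR). In CPM, epithelial-like cells were lowest and stromal-like cells highest of the 3 classes in each of lots 26, 29 and 30. The edgeR fit, which scales the sums, did not keep the order of stromal-like over pre-granulosa-like cells. The log2 fold change between these was -0.09 ± 0.18 without a term for the lot (adjusted p = 0.700, edgeR).

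**Figure D4:**
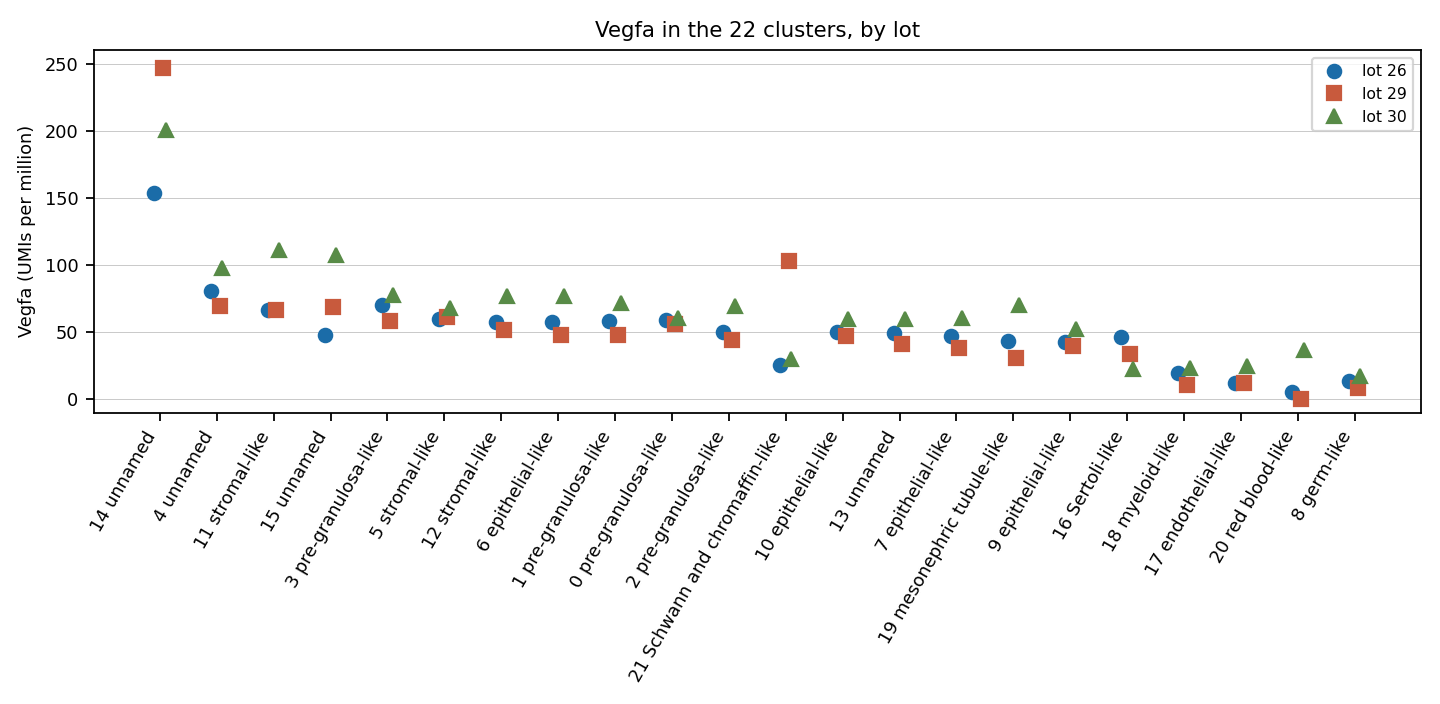
Vegfa level (CPM, linear axis) in the 22 clusters, ordered by the mean over lots, with 1 symbol per lot. Cluster 14 stands highest, the large somatic clusters lie between 38.4 and 111 CPM, and germ-like, endothelial-like and myeloid-like clusters reach at most 24.3 CPM.

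Vegfa also differed between lots in the same direction in many classes. Lot 30 had the highest Vegfa level in all 6 tested classes. Outside these, clusters 4, 13 and 15 and the mesonephric tubule-like and red blood-like cells were highest in lot 30 too. Sertoli-like cells were highest in lot 26 (46.0, 33.4 and 22.2 CPM in lots 26, 29 and 30). Cluster 14 and the Schwann and chromaffin-like cells (25.4, 102.8 and 30.1 CPM) were highest in lot 29. Of the 15 genes of a hypoxia list, 5 (33.3%) were also highest in lot 30 in each of the 3 large classes, namely Adm, Hif1a, Ldha, Ndrg1 and Slc2a1, where 11.1% of all genes tested were. By the same rule, Egln1 and Pgk1 of this list (13.3%) were highest in lot 29 and Pdk1 (6.67%) in lot 26. Lot 29 was highest for Vegfb in each of the 3, and 10.9% of all genes were highest there, while lot 26 was highest for Flt1 and Kdr (20.4% of all genes). Each lot is 1 library, so these orders have no replicates and no test.

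Vegfb, which binds Flt1 and Nrp1, was the most even of the ligands. Pre-granulosa-like cells had 127, 137 and 129 CPM, epithelial-like cells 122, 129 and 126, germ-like cells 111, 118 and 109.5, and stromal-like cells 112, 114 and 107. It was lower in stromal-like than in pre-granulosa-like cells by a log2 fold change of -0.45 ± 0.12 (adjusted p = 0.00295, edgeR) and than in epithelial-like cells by -0.32 ± 0.12 (adjusted p = 0.0400, edgeR). Both calls were lost when lot 26 or lot 30 was left out (adjusted p of 0.0509 and 0.131 for the first, 0.173 and 0.357 for the second, edgeR).

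Angpt1 was highest in stromal-like cells among the large classes, the class marked by Tcf21, Col1a1 and Pdgfra. The level there was 16.1, 24.1 and 16.0 CPM in lots 26, 29 and 30, against 0.264, 0.582 and 0.578 CPM in epithelial-like and 0.201, 0.104 and 0.166 CPM in pre-granulosa-like cells. Stromal-like cells held 77.9%, 86.7% and 76.9% of all Angpt1 UMIs, with 12.8% of all UMIs on average. The unnamed cluster 4 lies outside this class, though its best marker list was the stromal one, and had an Angpt1 mean of 2.52 CPM. With clusters 4 and 13 named, an alternative chosen after seeing the data, the stromal-like mean was 13.2 CPM in place of 18.7. The levels did not overlap between the stromal-like and the other large classes.

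Stromal-like against pre-granulosa-like cells, Angpt1 was higher by a log2 fold change of 6.58 ± 0.37 (adjusted p = 1.321e-11, edgeR), and against epithelial-like cells by 5.11 ± 0.34 (adjusted p = 5.832e-10, edgeR). Without doublets the second value was 5.95. Angpt1 had a UMI in 10.9%, 10.8% and 11.4% of stromal-like cells, at a median depth of 10073 UMIs, and in at most 1.2% of germ-like and 1.15% of endothelial-like cells in any lot, at median depths of 21213 and 14820 UMIs. Within the stroma, cluster 12 (Dkk2, Foxd1, Ogn and Postn among its leading genes) was at 22.5, 55.0 and 21.2 CPM, cluster 11 at 18.4, 20.4 and 23.5 and cluster 5 at 12.6, 12.1 and 11.2. Clusters 12 and 11 overlapped, and cluster 11 was the higher in lot 30, so the higher mean of cluster 12 rests largely on lot 29. Cluster 5 lay below both in each lot.

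Vegfc was next to Angpt1 in the stroma. It stood at 2.11, 2.87 and 2.91 CPM in epithelial-like and 0.604, 0.761 and 0.680 CPM in pre-granulosa-like cells, and was higher in stromal-like cells by log2 fold changes of 2.23 ± 0.20 and 4.12 ± 0.23 (adjusted p = 3.953e-08 and 9.018e-12, edgeR). Cluster 12 had the highest Vegfc level of the stromal clusters in each lot, at 17.2, 32.0 and 30.7 CPM. Stromal-like cells held 44.5%, 51.7% and 56.4% of the Vegfc UMIs, and endothelial-like cells 17.4%, 6.76% and 6.18%. Cluster 4 had a Vegfc mean of 2.43 CPM, and with clusters 4 and 13 named the stromal-like mean was 9.72 CPM in place of 13.7.

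Of the 10 genes, 6 were higher in stromal-like than in pre-granulosa-like cells and 1 was lower (all genes tested: 22.7% and 29.7%, or 52.4% in all). Besides Angpt1 and Vegfc these were Tek (log2 fold change 2.96 ± 0.40, adjusted p = 2.97e-06, edgeR), Nrp1 (1.69 ± 0.21, adjusted p = 9.061e-07), Angpt2 (0.89 ± 0.27, adjusted p = 0.00973) and Kdr (0.71 ± 0.20, adjusted p = 0.00604). With clusters 4 and 13 named, an alternative chosen after seeing the data, the Nrp1 value was 0.87. Tek in stromal-like cells was at 0.865, 0.770 and 1.39 CPM from 14, 9 and 24 UMIs, a level near 1 CPM. The mural marker list, which marks the cells around vessels, summed to 362, 268 and 315 CPM in stromal-like cells and to 33.8 to 37.1 CPM in pre-granulosa-like cells, and its part in the Tek and Angpt1 values was not tested.

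Between epithelial-like and pre-granulosa-like cells, 3 of the 10 genes were higher and 0 were lower with edgeR (all genes: 20.6% and 25.9%, or 46.5% in all), namely Kdr, Vegfc (log2 fold change 1.89 ± 0.24) and Angpt1 (1.47 ± 0.50, adjusted p = 0.0213). Among the genes with a negative log2 fold change, 0 had an unadjusted p under 0.05 and 0 were called by DESeq2, and with the lot as a block 1 gene, Vegfa, was lower. The Angpt1 call rests on 45 and 21 UMIs and was lost without doublets (adjusted p = 0.116) and without lot 29 or 30 (adjusted p = 0.0638 and 0.185). Between stromal-like and epithelial-like cells, 5 genes were higher and 2 were lower (all genes: 16.4% and 17.1%, or 33.5% in all).

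Angpt2 was low throughout. The stromal-like lots, at 4.08, 4.79 and 4.24 CPM, lay above the epithelial-like lots (2.57, 1.66 and 1.85 CPM) and the pre-granulosa-like lots (2.73, 1.28 and 2.00 CPM). In endothelial-like cells, where Angpt2 is known to be stored and released, it was at 4.33, 1.29 and 5.00 CPM in lots 26, 29 and 30, from 13, 2 and 7 UMIs, a range that overlapped with the stromal-like one. The stromal calls were lost without lot 29 (adjusted p = 0.112 against pre-granulosa-like and 0.0692 against epithelial-like cells, edgeR) and without lot 30 (0.0544 and 0.119). With clusters 4 and 13 named, the stromal-like mean of Angpt2 was 3.47 CPM in place of 4.37.

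**Figure D5:**
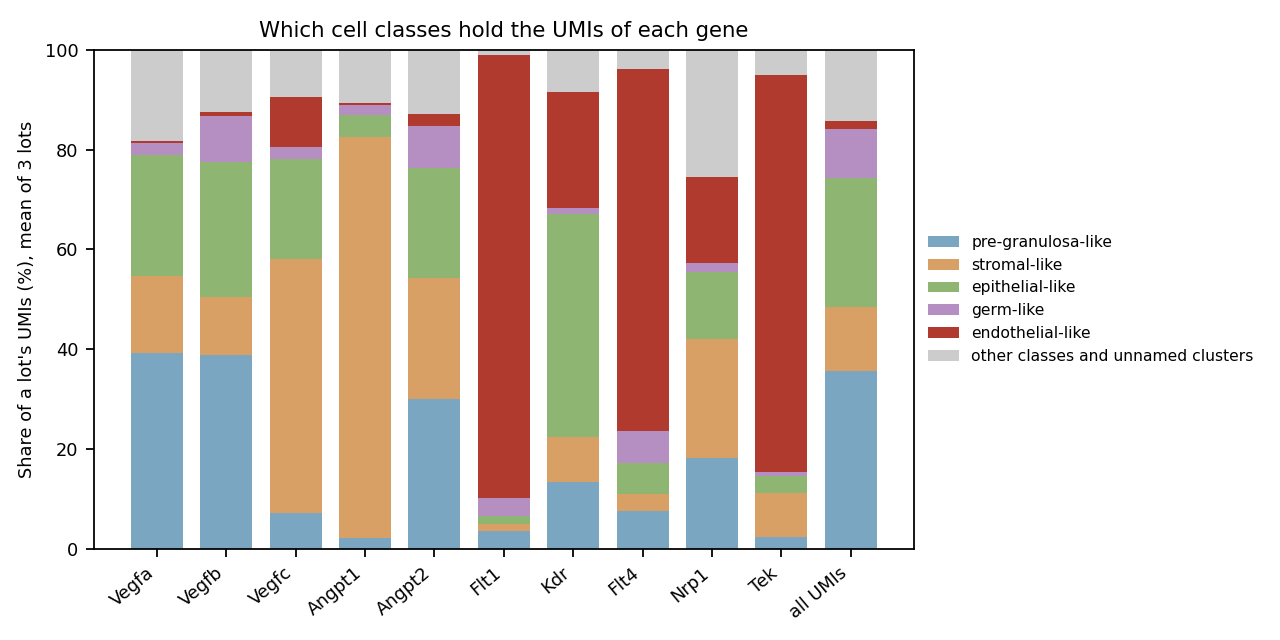
Share of a lot's UMIs of each gene (vertical axis, percent, mean of 3 lots) held by each cell class, with the share of all UMIs in the last bar. Endothelial-like cells hold most of Flt1, Flt4 and Tek, stromal-like cells most of Angpt1, and epithelial-like cells more of Kdr than any other class. The lots had been depleted of cells carrying CD31.

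The germ-like and myeloid-like classes were each set against the mean of the large somatic classes. In germ-like cells, 2 of the 10 genes were higher (Flt1 and Flt4) and 4 were lower (Vegfa, Kdr, Nrp1 and Vegfc), where 77.0% of all genes were called, 38.0% higher and 39.0% lower. Flt1 in germ-like cells was at 2.33, 0.877 and 1.91 CPM from 67 UMIs, and Flt4 at 1.16, 0.146 and 1.51 CPM from 37 UMIs, with the endothelial markers at a summed 22.4 to 33.4 CPM. The Flt4 call was lost without lot 30 (adjusted p = 0.0922, edgeR). Angpt1 was not called (log2 fold change -0.98 ± 0.45, adjusted p = 0.0550, edgeR). It was called lower with DESeq2 (adjusted p = 0.0380) and in edgeR without the filter on low counts (0.0435) and without lot 26 (0.0404). The edgeR call was also made at resolutions 0.4 and 1.2 (0.0335 and 0.0351) and with all named classes (0.0407). Vegfa fell by 2.15 (SE 0.18, adjusted p = 1.474e-09, edgeR) in germ-like cells. Without doublets the log2 fold changes of Kdr and Nrp1 were -3.18 and -3.25, in place of -2.49 and -2.10.

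In myeloid-like cells, 2 of the 10 were higher (Nrp1 and Angpt1) and 3 were lower (Vegfa, Vegfb and Kdr), where 35.1% of all genes were called, 16.0% higher and 19.1% lower. Nrp1 was higher by a log2 fold change of 2.30 ± 0.22 (adjusted p = 7.881e-08, edgeR) and had a UMI in 60% of the 135 cells. Angpt1 was at 6.20, 28.5 and 11.03 CPM from 22 UMIs in 9 cells (log2 fold change 3.25 ± 0.55, adjusted p = 9.67e-05, edgeR). Against stromal-like cells alone its level was lower, at a ratio of 0.614 with a 95% interval from counting of 0.383 to 0.936. The higher call therefore comes from the other large classes. Without doublets the log2 fold change of Angpt1 was 3.97, and that of Vegfa -2.45 in place of -1.66. The stromal markers summed to 440, 281 and 167 CPM in these myeloid-like lots, against 121 to 161 CPM in pre-granulosa-like cells. The Kdr call, from 27 UMIs, was lost under 8 of the alternatives (adjusted p between 0.0578 and 0.577).

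Of a list of 22 partner genes, 11 were higher and 5 lower in endothelial-like cells (all genes tested: 18.2% and 23.1%), with a median log2 fold change of 1.74 against -0.13 for all genes. Esm1, secreted by vessel tip cells, was at 30.7, 29.7 and 35.0 CPM and at 0 to 0.0856 CPM in the large somatic classes. The receptors Aplnr (259, 108 and 161 CPM) and Tie1 (193, 69.2 and 149 CPM), and the Notch ligand Dll4 (45.0, 25.9 and 37.1 CPM), had log2 fold changes of 9.04 ± 0.30, 8.59 ± 0.29 and 8.39 ± 0.28 (largest adjusted p = 2.928e-14, edgeR). The lower ones with the largest change were Angpt4 (log2 fold change -3.10 ± 0.83), Sema3e (-2.92 ± 0.70), Sema3c (-1.87 ± 0.30) and Sema3a (-1.86 ± 0.20), guidance cues and a ligand that bind Plxnd1, Nrp1 and Tek.

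The ligand side of this list differed among the large classes. Stromal-like against pre-granulosa-like cells, 10 of the 22 partners were higher and 3 lower (all genes tested: 22.7% and 29.7%), led by Svep1 (log2 fold change 5.41 ± 0.30, adjusted p = 7.474e-12, edgeR), which modulates Tek, and Sema3d (5.35 ± 0.30), with Angpt4 (-2.18 ± 0.28) and Nos3 (-1.43 ± 0.21) lower. In epithelial-like against pre-granulosa-like cells, 8 were higher and 3 lower (all genes: 20.6% and 25.9%), with Sema3d (5.06 ± 0.30) and Sema3e (3.90 ± 0.25) highest and Angpt4 (-1.52 ± 0.24) and Plxnd1 (-1.17 ± 0.25) lowest. In stromal-like against epithelial-like cells, 8 were higher and 5 lower (all genes: 16.4% and 17.1%). Figf, which encodes Vegfd, a further ligand of Flt4, was at 17.3 ± 2.14 CPM (SD, n = 3 lots) in stromal-like cells and 1.03 ± 0.213 CPM in epithelial-like cells (log2 fold change 3.94 ± 0.22, adjusted p = 8.725e-11, edgeR), and Eng was higher by 3.72 ± 0.33, while Nos3 (-1.66 ± 0.22) and Sema3e (-1.56 ± 0.23) were lower.

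Of the 15 genes of the hypoxia list, 5 were higher and 3 lower in endothelial-like cells (all genes tested: 18.2% and 23.1%), with Epas1, which encodes HIF-2α, at a log2 fold change of 5.63 ± 0.25 (adjusted p = 2.535e-13, edgeR), then Egln3 (2.20 ± 0.24), the glucose transporter Slc2a1 (1.74 ± 0.16) and Ndrg1 (0.76 ± 0.17), and with Bnip3 (-0.93 ± 0.21), Adm (-0.78 ± 0.31) and Hif1a (-0.24 ± 0.08) lower. In stromal-like against pre-granulosa-like cells, 2 were higher and 10 lower (all genes: 22.7% and 29.7%), with Adm (-2.49 ± 0.24) and Ankrd37 (-1.25 ± 0.17) lowest and Epas1 (2.27 ± 0.36) and Egln3 (1.45 ± 0.25) higher. In epithelial-like against pre-granulosa-like cells 1 was higher (Egln3, 2.61 ± 0.23) and 6 lower (Adm -2.27 ± 0.23 and Ndrg1 -0.94 ± 0.15 at the end of the list), where 20.6% and 25.9% of all genes were. In stromal-like against epithelial-like cells 1 was higher (Epas1, 2.62 ± 0.39) and 6 lower (Egln3 -1.16 ± 0.23 and Bnip3 -0.89 ± 0.15), where 16.4% and 17.1% of all genes were. The list's median log2 fold change was -0.67, -0.21 and -0.39 in these 3 comparisons, against -0.07, -0.06 and -0.03 for all genes. In germ-like cells 4 partners were higher and 10 lower and 2 hypoxia genes were higher and 11 lower, where 38.0% of all genes were called higher and 39.0% lower. In myeloid-like cells 3 partners were higher and 3 lower and 1 hypoxia gene was higher and 4 lower, where the shares of all genes were 16.0% and 19.1%.

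Over the 22 clusters, genes among the 3 with the pattern most like Vegfa were Zfhx4 (Pearson r = 0.935 of log2(CPM + 1)) and Acadsb (0.911). Those most like Kdr were Ptrf (0.878), Prrg3 (0.870) and Prr5l (0.870), and those most like Angpt1 were Tmem119 (0.940), Lum (0.938) and Postn (0.888). Lum and Postn are stromal markers used in naming, 10632 genes with at least 20 CPM in a cluster were compared, and the clusters share lots and differ in depth.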

How the data were processed

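The deposited counts are UMI counts per gene and barcode, made by the authors with UMI-tools, STAR 2.7 and featureCounts 2.0.1 (submitters' processing notes) on GRCm38 from uniquely mapped reads. The annotation release and the strand setting are not given in the sources used here. Counts were used as deposited. Kept cells (28971 of 29103) were clustered with Seurat 5.3.0 (2000 variable genes without the 10 genes and their partner and hypoxia lists, 50 components, resolution 0.8) and clusters were named from marker lists, so names are rebuilt and may differ from those of the study. UMIs were summed per class and lot, and 18 sums of 6 classes (smallest 280596 UMIs) entered a quasi-likelihood fit in edgeR 4.0.16 after TMM scaling and filterByExpr, with p-values adjusted by Benjamini and Hochberg's method across the 14686 genes and a threshold of 0.05, with DESeq2 1.42.0 as an alternative. The test was checked on simulated data. Because every class of a lot was taken from the same library, the lot pairs the sums. Over 45 same-lot pairs of classes, deviations from the mean of each class correlated at a median of 0.175, and 40 exceeded 0.1. The p-values measure the spread between 3 pooled lots. Intervals are exact 95% ones and cover counting error only. Doublets stayed in the main sums, and an alternative left out those that Scrublet (scanpy 1.11.5, set to expect 8%) called. The members, their partner and hypoxia lists and the marker lists were chosen with earlier results of these data known. The genes named are the 10 members, the called partner and hypoxia genes with the largest fold changes (up to 4 per direction in the endothelial-like comparison, up to 2 in the pairwise ones) and the 3 genes most like Vegfa, Kdr and Angpt1, of which 1 is not reported here. Alternatives are other size factors, no filter, the lot as a block, other resolutions, the held-out genes put back, more classes, cells with at most 5% mitochondrial UMIs and each lot left out. The alternative with at most 5% mitochondrial UMIs was used for levels only, with no test. Cell phases, pseudotime and protein were not analysed here.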

Additional observations from a re-analysis of the deposited data

Results flagged for a closer look

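Vegfa stood above every tested class in 3 clusters that had no name and entered no comparison, and these values were noted for lying above the highest tested class mean, 65.8 CPM in stromal-like cells. Cluster 14 had a mean of 200.3 CPM (153, 247 and 201 in lots 26, 29 and 30). Its cells had medians of 2929.5, 1680 and 2786 UMIs, below a median of 6164.5 or more in each other cluster, Lars2 and Gpr21 led its genes, and its level rests on 409 Vegfa UMIs. Cluster 4 (Sparcl1 and Ngfr among its leading genes) had a mean of 82.6 CPM (80.7, 69.6 and 97.6), and cluster 15, led by Insl3, Cyp11a1 and Cyp17a1, had 74.5 CPM (47.5, 69.0 and 107.0). The ranges of clusters 4 and 15 overlapped with that of the stromal-like class, and that of cluster 14 did not. Depth moved with the level of cluster 14, and its part was not tested.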

How the results depend on the processing

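The Flt1, Tek, Flt4, Kdr, Nrp1, Vegfc, Vegfa and Vegfb calls in endothelial-like cells were retained under each alternative that was tested. So were the Angpt1 and Vegfc calls in stromal-like cells against both other large classes. DESeq2 and the lot as a replicate block are among these alternatives. Counts of calls moved as follows. With the lot as a replicate block, 7523 in place of 4913 genes were called between stromal-like and epithelial-like cells, and 1 in place of 0 of the 10 genes was lower in epithelial-like than in pre-granulosa-like cells (Vegfa). With the block no other count of calls moved by over 1.5 times. With clusters 4 and 13 named, an alternative chosen after seeing the data, that count was also 1 (Nrp1), and with it or with all named classes the 1 gene lower in stromal-like than in pre-granulosa-like cells (Vegfb) became 0. Genes lower in stromal-like than in epithelial-like cells became 1 in place of 2, Vegfb being lost, with the size factors of DESeq2, without the filter on low counts, at resolution 0.4, with the held-out genes put back, with all named classes and with clusters 4 and 13 named. Leaving out each lot in turn, the genes called ranged from 3724 to 5936 in the endothelial-like comparison, 2670 to 4948 between stromal-like and epithelial-like cells and 3069 to 5146 in the myeloid-like comparison, genes lower in stromal-like cells from 0 to 1 against pre-granulosa-like and from 1 to 2 against epithelial-like cells, and genes higher in germ-like cells from 1 to 2. Fewer sums enter these fits, and the lowest counts came without lot 26 (endothelial-like, myeloid-like) or lot 30 (stromal-like against epithelial-like). The block changed no other call of the 10 genes than the Vegfa calls of epithelial-like against pre-granulosa-like and stromal-like cells. The 349 endothelial-like and 135 myeloid-like cells limit depth most.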

Other observations

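The 22 Angpt1 UMIs of the myeloid-like class came from 9 of its 135 cells, 3 in each lot, with at most 5 in 1 cell. Of these 9 cells, 8 had a UMI of Tyrobp, 2 of the macrophage gene C1qa and 0 of the neutrophil gene S100a8, against 124, 92 and 12 of the other 126 cells. Gp9 and Itga2b, genes of the megakaryocyte lineage, were found in 3 and 2 of the 9 cells and in 2 and 7 of the other 126. Pf4 and Ppbp, also known from that lineage, were found in 2 and 0 of the 9 cells and in 66 and 1 of the other 126. The stromal genes Col1a1, Col3a1 and Dcn were found in 2, 2 and 3 of the 9 cells and in 27, 41 and 17 of the other 126. These genes were chosen after the Angpt1 values were seen, the counts are small, and no test was made.

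Nrp1 and Kdr were also present outside the tested classes. Mesonephric tubule-like cells (79 cells) had Nrp1 at 175, 158 and 226 CPM and Kdr at 63.3, 39.0 and 109 CPM in lots 26, 29 and 30. Their Nrp1 level was below that of endothelial-like cells in each lot (means 185.9 and 266.9 CPM), though the ranges overlapped. Schwann and chromaffin-like cells (52 cells) had Nrp1 at 131, 161 and 203 CPM. The unnamed cluster 13, led by Lypd1, Pax8 and Aldh1a3, had Nrp1 at 155, 136 and 128 CPM from 1026 UMIs, above the 12.8 ± 0.55 CPM (SD, n = 3 lots) of pre-granulosa-like cells.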
